A study of Homo sapiens with 9 samples.

Results

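In HEK293T cells lacking FBXO42, 18913 intervals of the RBPJ list shared no base with an interval of any other list of the study. They are called knockout-private below. They were chosen by the measured intervals themselves, with 1 shared base as the limit, on chromosomes 1 to 22 and X. They made up 51.3% of the 36877 RBPJ intervals in the knockout, among 174109 intervals in all 6 lists. The same rule applied to wild-type cells left 21179 wild-type-private intervals, which was 49.7% of the 42655 in that list. Because the rule used the overlaps, these shares describe the choice and support nothing.

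The study profiled RBPJ by CUT&Tag, which uses an antibody to bring a DNA-cutting transposase to the bound protein, in HEK293T, a line of embryonic kidney origin. It also profiled open chromatin by ATAC-seq in Jurkat, a leukaemic T cell line. The lists came from HEK293T RBPJ libraries of FBXO42 wild-type cells, of FBXO42 knockout cells, and of cells titled RBPJ and RBPJK175R, and from ATAC libraries of FBXO42 wild-type and knockout Jurkat cells. The libraries titled RBPJ and RBPJK175R also carry the genotype FBXO42 KO, and knockout was made with lentiviral CRISPR constructs. The rule is therefore not symmetric. A knockout interval found again in those RBPJ lists of its own genotype was not counted as private. Wild-type cells had no further RBPJ list that could remove an interval in this way. The sources used here do not say if the knockout cells were a clone or a pool. Each group had 1 library, so no difference below has a replicate check or a test. Genotype, culture and library cannot be told apart. Intervals of 95% printed below are exact binomial intervals for counting error only.

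RBPJ is the DNA-binding protein of the Notch pathway. It recruits corepressors to its sites when Notch is silent, and it carries the cleaved Notch receptor and Mastermind coactivators when the pathway is on. FBXO42 is an F-box protein, the part of an SCF ubiquitin ligase that recognises the substrate. The core of the sequence that RBPJ recognises reads TGGGAA, or TTCCCA on the opposite strand.

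The promoters of 6 genes are shown because they hold that core, share at least 1 base with a knockout-private interval, and had the highest fold among such promoters. The interval need not cover the core or the whole promoter. Each line gives the 250 bases before the gene start, 5′ to 3′ on the gene's strand, from RefSeq on GRCh38.p14, with the core in capitals.

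LITAF promoter: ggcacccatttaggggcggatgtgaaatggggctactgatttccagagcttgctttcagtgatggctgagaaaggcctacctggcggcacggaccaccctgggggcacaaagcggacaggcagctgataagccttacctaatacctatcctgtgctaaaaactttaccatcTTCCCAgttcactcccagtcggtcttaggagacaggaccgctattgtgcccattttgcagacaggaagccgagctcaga
CCDC200 promoter: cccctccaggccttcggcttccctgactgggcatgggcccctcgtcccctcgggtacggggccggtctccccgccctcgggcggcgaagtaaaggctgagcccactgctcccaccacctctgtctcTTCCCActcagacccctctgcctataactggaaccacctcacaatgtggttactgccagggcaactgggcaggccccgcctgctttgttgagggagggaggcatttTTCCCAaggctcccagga
FXYD1 promoter: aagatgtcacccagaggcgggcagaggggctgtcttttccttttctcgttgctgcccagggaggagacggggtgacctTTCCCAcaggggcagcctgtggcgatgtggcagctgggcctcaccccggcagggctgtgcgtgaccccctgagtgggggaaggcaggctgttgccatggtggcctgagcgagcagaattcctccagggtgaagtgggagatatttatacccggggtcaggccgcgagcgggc
OPN1LW promoter: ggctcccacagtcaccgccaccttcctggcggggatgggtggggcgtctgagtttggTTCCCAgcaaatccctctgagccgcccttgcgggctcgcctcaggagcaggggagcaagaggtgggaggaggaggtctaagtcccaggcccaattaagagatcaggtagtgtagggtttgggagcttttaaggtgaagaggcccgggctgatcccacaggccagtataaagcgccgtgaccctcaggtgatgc
INS promoter: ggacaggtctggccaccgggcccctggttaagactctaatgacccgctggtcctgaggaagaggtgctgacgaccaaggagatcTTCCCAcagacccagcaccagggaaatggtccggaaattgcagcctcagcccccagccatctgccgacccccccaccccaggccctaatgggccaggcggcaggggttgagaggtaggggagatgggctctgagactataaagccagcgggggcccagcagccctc
PODN promoter: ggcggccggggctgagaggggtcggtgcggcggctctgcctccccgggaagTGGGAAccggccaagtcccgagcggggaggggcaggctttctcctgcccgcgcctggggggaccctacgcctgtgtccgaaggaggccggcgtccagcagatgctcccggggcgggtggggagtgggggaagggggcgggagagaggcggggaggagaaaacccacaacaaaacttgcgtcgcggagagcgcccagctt

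LITAF, which encodes a membrane protein of endosomes and lysosomes, has its promoter on the minus strand of chromosome 16 at positions 11587467 to 11587716. The authors' fold is the summit pileup over the local background, each with 1 read added. The overlapping interval had a fold of 6.22 from 17 reads, with its summit 517 bases before the start, and did not reach the core. CCDC200 lies on the minus strand of chromosome 17, with its promoter at 43231270 to 43231519. Its promoter was alone among the 6 in holding 2 copies of the core, beginning 124 and 18 bases before the start. The interval, of fold 6.09, covered the copy nearer the start and not the other. FXYD1, a regulator of the sodium pump, has its promoter on the plus strand of chromosome 19 at 35139384 to 35139633. Its interval, of fold 5.36, had its summit 218 bases after the start and did not reach the core. OPN1LW, the long-wave cone opsin, has its promoter on the plus strand of X at 154143993 to 154144242, and the interval, of fold 5.32, covered all of it, with the summit 27 bases before the start. The insulin gene INS has its promoter on the minus strand of chromosome 11 at 2161210 to 2161459, wholly under an interval 1878 bp wide with a fold of 4.94; the readthrough gene INS-IGF2 has the same promoter sequence. PODN, which encodes a small proteoglycan, has its promoter on the plus strand of chromosome 1 at 53061963 to 53062212. Its interval, of fold 4.70, met the promoter in 4 bases, with its summit 335 bases before the start and the core outside it. The summits of the OPN1LW, INS and PODN intervals had 13, 20 and 16 reads.

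Across all 371 promoters that shared a base with a knockout-private interval, 96 (25.9%) held the core in either orientation (95% interval 21.5 to 30.6%). In 74 of the 96 a core lay wholly inside the interval. The share was 20.8% of all 34961 promoters in the table, 22.8% of the 7833 under a knockout interval that another list shared, and 19.6% of the 525 under a wild-type-private one. The promoters differed more in base composition. Those under knockout-private intervals had a median of 9 CpG dinucleotides in 250 bases, against 22 under shared knockout intervals and 20 under wild-type-private ones. The median was 11 over all promoters and 3 over those under no interval of any list, so the knockout-private value was near that of the whole table. Median GC content was 61.6% under knockout-private intervals, against 66.0% under shared knockout and 68.4% under wild-type-private ones. It was 58.4% over all promoters and 49.2% under no interval. A match of letters is a description and not a site, and the table holds no promoter of chromosome 8.

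Knockout-private intervals were narrower and weaker than the rest of the knockout list. Their median width was 503 bp (quartiles 404 and 689 bp, highest 4187 bp), against 820 bp for shared knockout intervals and 420 bp for wild-type-private ones. Their median fold was 3.67 (quartiles 3.16 and 4.19), against 4.35 in the shared set and 3.76 in the wild-type-private set. The summit pileup was 13 reads at the median, with quartiles of 11 and 16, against 19 reads in the shared and 12 in the wild-type-private set. A pileup of 20 or more reads was reached by 8.81% of knockout-private, 47.6% of shared and 7.50% of wild-type-private intervals. The authors' −log10 q was at least 5 in 3468 knockout-private intervals (18.3%) and at least 10 in 205 (1.08%). The corresponding shares were 56.1% and 28.4% of the shared set, and 23.7% and 3.13% of the wild-type-private set.

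The local background under the summit differed as well. Its median was 2.66 reads for knockout-private and 3.54 for shared intervals, and 1.63 was the lowest value in the list. That lowest value applied to 14.7% of knockout-private, 8.13% of shared and, at 1.77 in its own list, 33.9% of wild-type-private intervals. A background of at least 2 times the lowest was found under 32.9% of knockout-private, 56.1% of shared and 15.8% of wild-type-private intervals.

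Split by width into 4 equal bins, the knockout list was 72.6% private in the narrowest, 63.2% and 48.8% in the middle bins and 20.6% in the widest. Split by fold into 10 equal bins, it was 58.3% private in the lowest, 66.2% in bin 2, 30.9% in bin 9 and 2.85% in the highest. A wide interval has more bases on which to meet another list, so the rule itself acts on width.

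**Figure D1:**
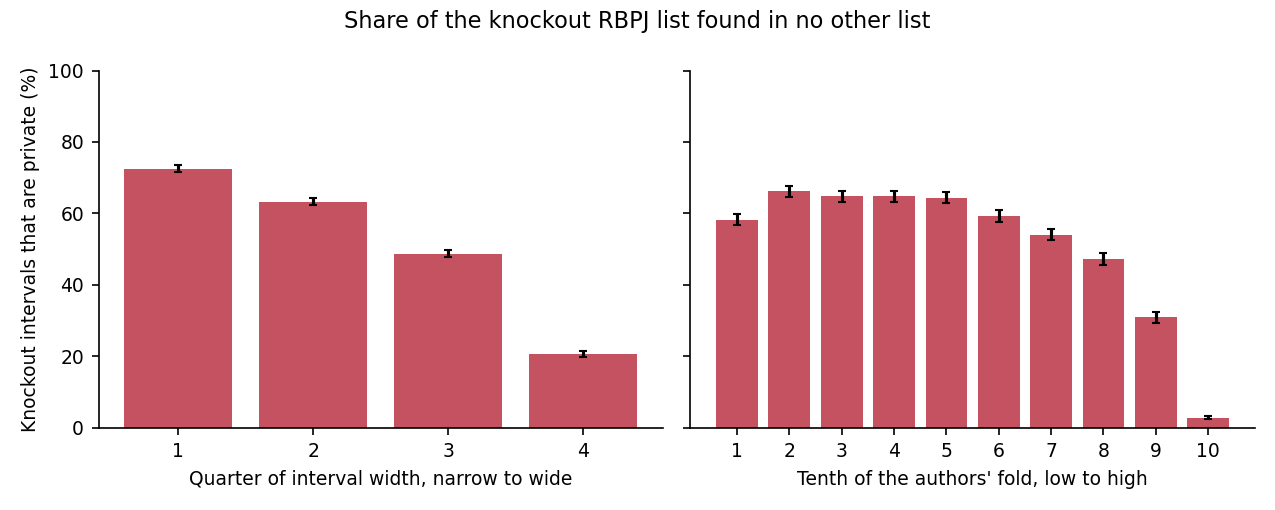
Percentage of the knockout RBPJ list that is private (vertical axes), in 4 equal bins of interval width (left) and 10 equal bins of the authors' fold (right); bars are shares and error bars exact 95% binomial intervals. The share is 20.6% in the widest bin and 2.85% in the bin of highest fold.

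Most knockout-private intervals had a neighbour in another list. The gap to the nearest such interval was under 1 kb for 25.5%, under 5 kb for 65.7% and under 10 kb for 82.3%. On an even grid of points every 10 kb, the shares were 7.04%, 21.1% and 32.6%, and for wild-type-private intervals 21.7%, 56.0% and 71.0%. At the edge of the rule, 604 members lay under 100 bp from another list and had a median fold of 3.61, a width of 513 bp and a pileup of 14 reads. The 765 knockout intervals that another list overlapped by under 100 bp had medians of 3.59, 516 bp and 14 reads.

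The intervals were spread very unevenly over the chromosomes. Their density was 6.24 per Mb in all and ranged from 27.7 per Mb on chromosome 19 to 1.35 on chromosome 3, a ratio of 20.5. That ratio was 20.8 for shared knockout intervals and 7.86 for wild-type-private ones. Chromosome 22 had 19.3 per Mb, chromosome 1 had 16.3 and chromosome 17 had 14.1. Chromosomes 18 and 4 were at the other end, with 1.47 and 1.72. Chromosome 1 held 4052 of the intervals, or 21.4%. The order was not that of gene number. There were 224 members per 100 coding genes on chromosome 22, 198 on chromosome 1 and 192 on chromosome 10, but 115 on gene-dense chromosome 19, 41.9 on chromosome 11 and 25.2 on chromosome 3. Width and fold varied little in comparison, with chromosome medians between 434 and 542 bp and between 3.42 and 3.8.

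Set against the wild-type-private intervals, the knockout-private ones were 0.893 times as many overall (0.876 to 0.911). They were more numerous on 7 of 23 chromosomes. These comparisons carry the asymmetry of the rule, since only the knockout list was also set against RBPJ lists of its own genotype. The ratio was 1.89 on chromosome 21 (1.55 to 2.30), 1.63 on chromosome 1 (1.55 to 1.71), 1.39 on chromosome 14 and 1.29 on chromosome 19. It was 0.386 on chromosome 8, 0.369 on chromosome 3 and 0.320 on X (0.291 to 0.353). On X, 557 intervals were knockout-private and 1738 wild-type-private. The X members also had the lowest median pileup of the 23 chromosomes, 10 reads, and a median background of 1.63, which is the lowest value in the list.

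Pileup comes from the same reads as the interval calls, so it is not independent of the rule. It was compared at sites called in both RBPJ lists. At 13697 such sites, the median log2 of the knockout pileup over the wild-type pileup was −0.54; depth was not corrected for, so the values are read relative to that median. On this relative log2 scale the difference was 0.32 on chromosome 16, 0.30 on chromosome 22, 0.21 on chromosome 1, −0.39 on chromosome 18 and −0.40 on chromosome 3. Chromosomes with a high relative pileup tended to have a high ratio of private intervals, with Spearman's rho of 0.71 over 23 chromosomes. Over the 159 windows of 10 Mb with at least 20 private intervals and 20 sites in both lists, rho was 0.69. X departed from this, with a relative pileup of −0.08 beside the lowest ratio. Chromosome 21 had −0.02 beside the highest ratio, and chromosome 14 had −0.03 beside 1.39. Chromosome 7 had 0.05 beside a ratio of 0.633. The points come from the same 2 libraries, and the same reads set both the pileups and the calls, so these values of rho are a description only. DNA copy number was not measured in the files, and its part in the result was not tested.

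**Figure D2:**
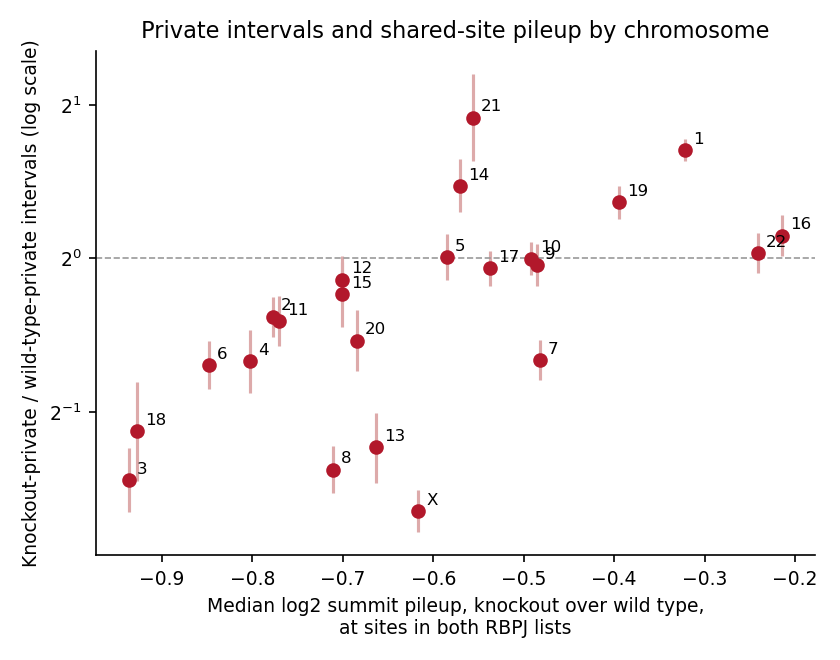
Ratio of knockout-private to wild-type-private intervals (vertical, log scale, bars are exact 95% intervals for counting error) against the median log2 pileup of knockout over wild type at sites in both lists (horizontal), 1 point a chromosome. Chromosomes 3 and 18 lie low on both axes and chromosome 1 high on both, while X has the lowest ratio, 0.320.

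Windows of 10 Mb showed the same concentration at a finer scale. Over 303 windows of at least 5 Mb, the median was 1.80 knockout-private intervals per Mb, with quartiles of 0.600 and 6.65. A further 13 windows under 5 Mb, with 864 members, were left out, so shares by window are of what the windows used hold. As few as 28 windows (9.24%) held 50% of the knockout-private intervals in the windows used. The 30 windows densest in knockout-private intervals held 52.7% of them, 45.2% of the shared knockout and 30.3% of the wild-type-private intervals, with 23.3% of coding genes. Ranking by their own density favours the knockout-private set. Each ranked by its own density, the shared knockout set had 46.2% and the wild-type-private set 34.6% in its densest 30 windows. Intervals within 10 Mb of a chromosome's end made up 36.2% of the knockout-private and 34.9% of the shared knockout set, but 24.4% of the wild-type-private set, 21.5% of coding genes and 15.2% of the even grid.

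Windows under 5 Mb were not ranked, among them the end of chromosome 10, which holds a dense run given below. In the ranked windows, the densest was the first 10 Mb of chromosome 19, with 560 members (56.0 per Mb). Next came chromosome 9 from 130 Mb to its end with 47.8 per Mb, chromosome 8 from 140 Mb to its end with 46.2, chromosome 14 from 100 Mb to its end with 45.8 and chromosome 1 from 20 to 30 Mb with 43.1. The last 6.88 Mb of chromosome 14 held 315 knockout-private against 102 wild-type-private intervals. Between 150 and 160 Mb of chromosome 1 there were 425 against 124, a ratio of 3.43 and the highest of the windows with at least 20 private intervals. At the other end, 10 to 20 Mb of chromosome 9 held 1 knockout-private and 56 wild-type-private intervals, and 130 to 140 Mb of X held 31 and 227. These windows were picked by their ratio after the values were seen. Of the 11 windows with no member, 7 held no interval of any list. The other 4 lay at 80 to 90 Mb of chromosome 3, 30 to 40 Mb of chromosome 4, 10 to 20 Mb of chromosome 13 and 30 to 40 Mb of chromosome 15, which holds 55 coding genes.

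Certain runs of 1 Mb stood out for density. They were picked by their count of knockout-private intervals, which favours that side of each comparison. The densest, chr1:155734488-156723595, held 119 knockout-private, 64 shared knockout and 24 wild-type-private intervals among 34 coding genes, which include LMNA (nuclear lamins A and C), NES (the intermediate filament nestin) and the transcription factor gene MEF2D. The run at chr1:31761274-32761004 held 114 knockout-private and 61 wild-type-private intervals, and includes the deacetylase gene HDAC1, its partner RBBP4 and the T cell kinase gene LCK. The run at chr10:132389704-133388970 held 109 and 58 across INPP5A, ADAM8 and NKX6-2. Within the knockout-private set the nearest other member was 8.13 kb away at the median, and 55.0% had one within 10 kb. The median spacing of wild-type-private intervals was 15.6 kb. Shared knockout intervals were closer still, at 5.45 kb, with 60.0% within 10 kb of another.

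Density rose with the density of genes, and more steeply than for wild-type-private intervals. Spearman's rho between knockout-private intervals and coding genes per Mb was 0.71 over the 303 windows, and 0.66 for wild-type-private intervals. When the windows were split into 5 equal groups by coding genes, a split made after seeing the values, the knockout-private densities were 0.902, 1.61, 3.54, 6.66 and 17.6 per Mb. The wild-type-private densities were 2.49, 3.81, 6.11, 8.01 and 14.1 per Mb. The ratio of the 2 therefore went from 0.362 (0.327 to 0.399) in the gene-poorest group through 0.424, 0.580 and 0.831 to 1.25 (1.22 to 1.29) in the gene-richest. Shared intervals went the same way, with knockout-to-wild-type ratios of 0.572, 0.586, 0.685, 0.800 and 0.959. The knockout-private windows also followed the other lists: rho was 0.90 with shared knockout intervals, 0.88 with wild-type-private, 0.84 with those private to the library titled RBPJK175R, and 0.60 and 0.43 with those private to wild-type and knockout ATAC.

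Although they lay in gene-rich surroundings, knockout-private intervals were mostly away from gene starts. The median number of coding genes within 500 kb was 14, against 15 for shared knockout intervals, 10 for wild-type-private ones and 4 for the even grid. Yet 1061 of them (5.61%, 5.29 to 5.95%) lay within 1 kb of a coding gene's start, against 39.2% of shared knockout intervals, 6.68% of wild-type-private ones and 1.70% of the grid. Another 57.6% lay within a coding gene and 36.8% between coding genes, and 9.15% overlapped noncoding genes only. The share within a coding gene was 36.5% for shared knockout intervals, 53.6% for wild-type-private ones and 40.5% for the grid. The distance to the nearest start was 14.4 kb at the median, against 3.03 kb, 19.2 kb and 78.6 kb. Transfer RNA genes were overlapped by 3 knockout-private and 102 shared knockout intervals, and small nuclear RNA genes by 0 and 37.

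**Figure D3:**
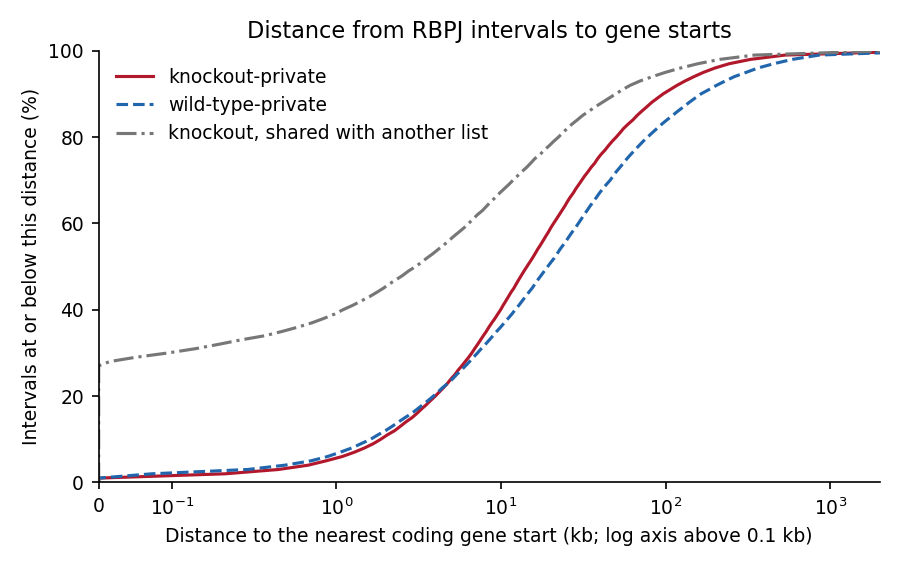
Cumulative percentage of intervals (vertical) at or below a distance to the nearest coding gene start (horizontal, kb, log axis above 0.1 kb) for 3 sets of RBPJ intervals. Within 1 kb the curves reach 5.61% for knockout-private, 6.68% for wild-type-private and 39.2% for shared knockout intervals.

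The gene bodies with most knockout-private intervals were long. They were ranked by that count, which favours the knockout-private side of each comparison with wild-type-private intervals. GSE1, whose product is found in histone deacetylase complexes, held 37 in 507 kb, with 15 wild-type-private intervals in the same span. PRDM16, a zinc finger regulator of brown fat and haematopoietic stem cells, held 35 against 9. COL23A1, a transmembrane collagen gene, held 29 against 4, and MEGF6 on chromosome 1 held 19 against 3. INPP5A, an inositol phosphatase gene, held 27 against 21. CTBP2, a transcriptional corepressor, held 20 against 8. ZNF362, GALNT2, DIP2C and RPTOR held 24, 21, 20 and 20, against 8, 7, 14 and 12. CAMK1D and PRKAG2 each held 19, against 11 and 15. In all, 5325 coding genes (26.9%) carried at least 1 knockout-private interval in their span, and 97 carried 10 or more.

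At their starts, 1010 of 19817 coding genes (5.10%) had a knockout-private interval, and for 337 of them no other interval of any list lay within 1 kb of a start. Among 36 classical Notch targets there were 5 (13.9%, 4.67 to 29.5%). GATA3, a T cell and kidney transcription factor gene, had a fold of 5.14 with 22 reads. DTX1, a Notch regulator of the Deltex family, had 3.97 with 13 reads, and was the one of the 5 with no other interval of any list at its starts. HES2 and HES6, repressors of the Hairy family, had folds of 3.58 and 2.75, and NFKB2, a subunit of NF-kappaB, had 2.71. At GATA3, HES2, HES6 and NFKB2 another knockout interval at the same gene was shared, so the private one was an added interval. Of the 36 targets, 22 (61.1%) had a shared knockout interval at a start, against 36.6% of all coding genes. A shared wild-type interval was at a start of 25 (69.4%), against 50.9% of all coding genes.

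In the Notch pathway itself, 2 of 39 genes (5.13%) had a knockout-private interval at a start, a share near that of all coding genes. They were MFNG, a glycosyltransferase that modifies Notch, with a fold of 3.14 from 18 reads, and NUMBL, a Numb-like Notch antagonist, with 3.14 from 17 reads. On the list of RBPJ corepressors the one gene was KYAT1 (fold 4.50), an aminotransferase that had been listed in error. Without it and the other two misplaced names, 0 of 19 corepressor genes had one, while 13 (68.4%) had a shared knockout interval. Of 16 housekeeping genes, 0 had a private interval and 12 a shared one. With so few genes, a count of 0 is near the share of all coding genes and is no result about either list.

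Markers of cell types gave small counts, to be read beside the 5.10% of all coding genes. Of 14 kidney and epithelial genes there were 3 (21.4%, 4.66 to 50.8%), GATA3 above, the adhesion gene EPCAM (3.89, 10 reads) and the keratin gene KRT19 (3.14, 18 reads), and EPCAM and KRT19 had no other interval at their starts. Of 13 T cell genes there was LCK (2.62), and of 38 neuronal genes ELAVL3 (2.71). Of 91 cancer-testis family genes there were 3, GAGE13 (10.6), GAGE12B (7.32) and MAGEA1 (3.99), all on X. Among 387 olfactory receptor genes there was OR2V1 (3.64), and among 170 other clustered genes that most tissues keep silent there was none.

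The strongest knockout-private intervals fell in repeated genes. The highest fold, 16.3 with 42 reads, was at chr21:8214534-8214990 in the 45S ribosomal RNA unit RNA45SN2. The next 2, at chr1:228611620-228612092 (14.8, 38 reads) and chr1:228627838-228628402 (12.5, 39 reads), lay in the array of 5S ribosomal RNA genes. Near-identical copies can share reads, so these positions are uncertain. Counted over the whole 5S array, a choice made after seeing the values, the knockout list had 7 intervals, 2 of them private, and the wild-type list 4. Over the GAGE array on X the counts were 5, 3 of them private, and 2. Over the 45S units of chromosome 21 the knockout had its 1 private interval, the other RBPJ lists had 0, and the ATAC lists had 4 in wild type and 3 in knockout.

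Outside these arrays, chr9:137563852-137565263 in DPH7, an enzyme gene of diphthamide synthesis, had a fold of 9.50 with 24 reads. The same fold and reads were found at chr21:42172733-42174528, 25161 bp from the start of ABCG1, a cholesterol exporter gene. Intervals in TRAF3 (an immune signalling adaptor), COL23A1, TRNAU1AP and CBS (the first enzyme of transsulfuration) had folds of 8.83, 8.68, 8.46 and 8.36. One 8211 bp from the start of IBA57 had 8.70. PNMA6A on X had 12.2 from 31 reads at 759 bp from the start. The background under these 8 summits was at most 2.69 reads, so 21 to 31 reads were enough for such folds.

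At gene starts, the highest folds after PNMA6A and GAGE13 were at TFAP2E (8.33, 22 reads), an AP-2 transcription factor gene, and MADCAM1 (7.78, 25 reads), an endothelial adhesion gene. An interval 190 bp from the start of ADAMTSL4, a matrix protein gene, and over that of LOC124904417 had 7.65, and the asparaginase gene ASPG had 7.63. LIF, a cytokine gene, had 7.27 from 25 reads over 2419 bp. The start of RFPL1 had 7.10, the orphan nuclear receptor gene ESRRG 7.07 and ERGIC1 6.92. ESRRG lay in sparse surroundings, with 2 coding genes within 500 kb and 35365 bp to the nearest interval of another list. PNMA6A, MADCAM1, ADAMTSL4 and ASPG had another list's interval within 512 bp, and RFPL1 had one at 602 bp.

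The widest members had high pileups for this set, 22 to 29 reads against a 95th percentile of 21, while their folds ranged from 2.34 to 5.93. The widest, chr1:32342953-32347139, spanned 4187 bp, 6720 bp from the start of MARCKSL1, with a fold of 5.93. One of 4177 bp in HAGH had a fold of 2.34 over a background of 10.1 reads. Those in CROCC (3590 bp), DBN1 (3545 bp), DDA1 (3270 bp) and PDXK (3170 bp) had folds of 3.54, 5.40, 4.96 and 4.18. Those near MATN1 (3569 bp) and POLL (3431 bp) had 4.19 and 3.44. All 8 lay at least 840 bp from another list.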

How the data were processed

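RBPJ CUT&Tag and ATAC-seq interval lists were analysed as deposited, 1 per library. Values of the IgG libraries were not analysed here. Per the submitters' processing notes, the authors used Trim Galore, Bowtie2, MACS2 and deepTools on build hg38, with versions, settings and control libraries not given in the sources used here. The deposited lists give positions, a fold (ratio of summit pileup to local background, each plus 1 read, as the values show), −log10 p and −log10 q, and a score. In the knockout list 99.98% of scores equalled 10 times −log10 q without decimals. The knockout file had 37009 rows, and 132 on other sequences were left out. Library depth was not analysed here.

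Pileup and background in reads were recovered from fold and −log10 p (tolerance 0.1%). This succeeded for every member, and it was tested on simulated data. Gene positions came from RefSeq (GRCh38.p14) after 679 genes on unplaced and alternate sequences were left out. A start was any in the promoter table, which covers 15811 of 19817 coding genes, and otherwise either annotated end. Spearman's rho is given as a description, with no p. Python 3.11.15, pandas 2.3.3, scipy 1.17.1 and bedtools 2.31.1 were used.

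Named genes were the 12 intervals of highest fold, the 12 of highest fold within 1 kb of a coding start, the 8 widest, list genes with an interval at a start, the densest and sparsest windows and the promoters shown; 1 gene that the rule names is not reported here. Genes with most intervals and the repeat arrays were added after their values were seen. The members, rules and gene lists were chosen with earlier results of these data known, and 3 names were found misplaced on the corepressor list after its values were seen. Alternatives changed the overlap rule, the q-value, the lists used, the windows and the definition of a start.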

Additional observations from a re-analysis of the deposited data

How the results depend on the processing

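The knockout-private share of the list, 51.3%, was 62.5% when 50% of an interval had to be covered, 38.2% with the other lists widened by 1000 bp, 25.6% at a −log10 q of at least 5 and 3.86% at 10, 53.0% against the 3 other RBPJ lists and 61.9% against the wild-type list alone. In the same order the median width of 503 bp became 536, 494, 649 and 982 bp, then 519 bp against the wild-type list alone, and the share at a gene start of 5.61% became 7.33, 4.09, 7.53, 16.6, 6.08 and 6.61%. That share was 24.1% with 5 kb, 11.6% with starts of all genes and 8.54% with both ends of every coding gene, an alternative added after seeing the data. The ratio of the highest to the lowest chromosome density, 20.5, was 16.6 with widened lists, 50.1 at a −log10 q of 5 and 16.9 over 100 kb bins with an interval of any list; at 10 it has no value, since a chromosome had no member. The ratio to wild-type-private intervals, 0.893, was 0.850 with widened lists and 0.691 and 0.310 at a −log10 q of 5 and 10. It also fell below its counting interval when fewer lists were used. Against only the 3 other RBPJ lists, 19546 intervals were knockout-private and 24915 wild-type-private. Against only the other RBPJ list of the FBXO42 pair, a setting that treats both genotypes alike, the counts were 22828 and 28957. Spearman's rho with wild-type-private intervals, 0.88, was 0.76 and 0.41 at those limits, and rho with coding genes, 0.71, was 0.46 at 10 and 0.50 over the bins. The higher limits leave 3468 and 205 members. The cause of the other shifts was not tested. Leaving out chromosomes 1 and X, also added after seeing the data, gave rho of 0.88 and 0.70. Of the 12 members with the highest fold, 8 stayed members with widened lists and 12 under the other settings tried. Every further value of rho moved by less than 0.1, and every further share, width or ratio stayed within its counting interval. No paired analysis was possible because each group has 1 library.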
